A study of Ambystoma mexicanum with 6 samples.

Results

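Among the 99088 genes measured in the axolotl retina, 37 had transcripts that were estimated to be longer in all 3 regenerating pools than in all 3 uninjured pools. These genes had at least 100 reads in each of the 6 libraries, a condition met by 12981 genes. Their transcript length, averaged on the log2 scale over the pools of a group, was greater by at least 0.5 (about 1.42-fold or more) in regenerating retina, and their shortest regenerating value lay above their longest uninjured value. The genes were chosen by these lengths, so lengths and shifts are given below as a description with no test. Reads entered the choice only as that minimum, and the change in reads between the groups was not used. The lengths are estimated from the same reads, so lengths and reads are not independent.

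The axolotl (Ambystoma mexicanum) is a salamander that can regrow its neural retina after surgical removal (retinectomy). The regenerating group held 3 pools of retina that had regrown for 27 days after retinectomy. The uninjured group held 3 pools of the retinas first taken from the left eyes of the same 12 adult animals. All animals were leucistic, a pale-skinned genotype with no further allele given, and each pool mixed the tissue of 4 animals. Single animals were not measured, so each SD and p-value rests on pools. Regenerating pools 1, 2 and 3 held 29.4, 32.0 and 34.2 M estimated reads, and uninjured pools 1, 2 and 3 held 35.7, 37.4 and 31.0 M (M stands for 1000 times 1000). Uninjured pool 1 stood apart from the other uninjured pools across many genes, and the range of shifts and the counts of calls on reads are given with and without it. The genes carry only identifiers, none of which (0) was found in the RefSeq gene table of the species, so no gene name or role can be given and the tissue could not be checked against marker genes.

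A gene can give rise to several RNAs when it starts at different promoters, joins different exons or ends at different cleavage sites. In mammals and flies, neural tissue is known for exons that other tissues skip and for transcripts that run to more distant cleavage sites, whereas dividing cells often use nearer ones. In the mouse, photoreceptors use a set of exons under the control of Musashi proteins. Salmon, the program behind the deposited values, estimates how abundant each annotated transcript of a gene is and reports a length for the gene that is the mean over its transcripts, weighted by that abundance. The length of a gene with a single annotated transcript, or a single detected one, therefore stays fixed, and that of a gene with several transcripts moves when their proportions move. It shows neither which transcripts nor which end or exon of the gene is involved, and with whole tissue, fewer cells of a type and less RNA per cell cannot be told apart. The files give no error for a length.

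Longer transcripts of this size were uncommon. Of the 12981 genes with at least 100 reads in every library, 9689 had more than 1 length over the libraries and 3292 had the same length in all of them. Regenerating lengths lay entirely above uninjured lengths in 963 genes (7.42% of the 12981) and entirely below in 2788 (21.5%). With the demand on size, 37 genes (0.285%) remained on the longer side, and the same demands turned round gave 143 genes (1.1%) with shorter transcripts. Most genes with several lengths moved little. Their median shift was -0.0061 on the log2 scale, and 78.8% of them shifted by less than 0.1.

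**Figure D1:**
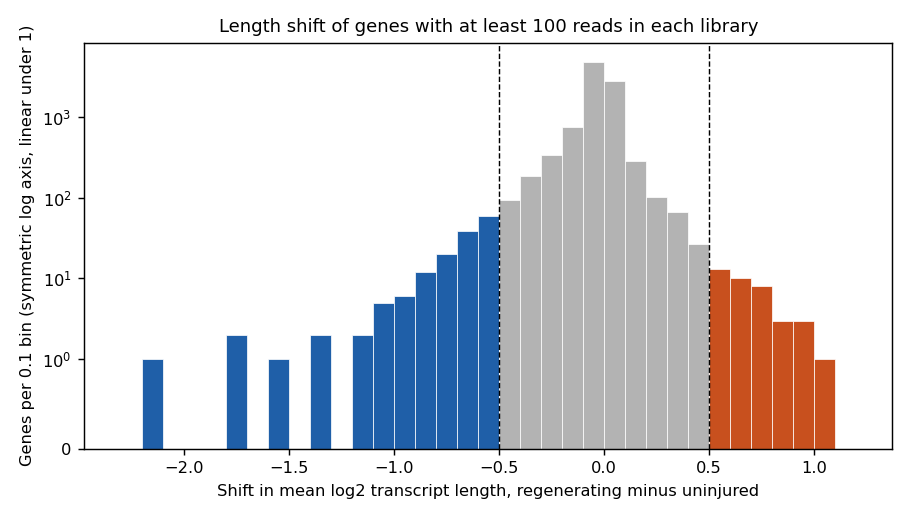
Shift in mean log2 transcript length, regenerating minus uninjured (x axis), and number of genes per bin of 0.1 (y axis, symmetric log scale that is linear under 1) for the 9689 genes with several lengths and at least 100 reads in each library. Dashed lines mark shifts of 0.5 in either direction; bars beyond them are orange (longer in regenerating retina) or blue (shorter), and the orange bars hold 38 genes, the 37 described here and 1 whose groups overlapped.

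Within the 37 genes the shift in mean log2 length ran from 0.50 to 1.04 with a median of 0.65, which corresponds to lengths 1.42-fold to 2.06-fold greater with a median of 1.57-fold. Without uninjured pool 1 the shifts of the same genes ran from 0.44 to 1.34 with a median of 0.67. In 8 genes the shift was at least 0.75, in 16 it lay between 0.6 and 0.75, and in 13 it was under 0.6. The lengths covered a wide range. Geometric means per gene ran from 1257 to 20810 bases with a median of 5459.7 bases in the regenerating pools, and from 803 to 10516 bases with a median of 3496 bases in the uninjured pools. Over all 6 libraries the median was 4234 bases for the 37 genes and 3757 bases for the 9689 genes with several lengths.

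The threshold of 0.5 separated genes with nearly the same shift. Just inside it lay AMEX60DD040549 at 0.50, AMEX60DDU001001857 at 0.51 and AMEX60DD050318 at 0.51. Just outside it lay AMEX60DD035166, AMEX60DD039651 and AMEX60DD039882, whose groups did not overlap either and whose shifts were all 0.49. AMEX60DD035166 measured 7416, 7464 and 7483 bases in the regenerating pools, against 5284, 5141 and 5452 bases in the uninjured pools. The genes outside the line are therefore little different in size of shift from those inside it.

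AMEX60DD000474 had the greatest shift, 1.04 on the log2 scale. Its transcript length was 3389.6, 3193 and 3149 bases in regenerating pools 1, 2 and 3, against 2359, 1279.7 and 1289.7 bases in uninjured pools 1, 2 and 3. The regenerating pools lay close together, whereas uninjured pool 1 stood 0.657 of the way from the other uninjured pools towards the regenerating mean on the log2 scale. Without that pool the shift was 1.34. This gene had few reads, 141, 119 and 131 in the regenerating libraries and 170, 173 and 136 in the uninjured ones, so its lengths rest on little data.

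AMEX60DD017146 shifted by 0.98 and had the widest gap between groups. Its length was 20810 bases in each regenerating pool, against 10572, 10362 and 10615 bases in uninjured pools 1, 2 and 3. The same whole number in 3 libraries is what a single annotated transcript gives when no other receives any abundance. If the mean is weighted as described, at least 49.2%, 50.2% and 49.0% of the transcript abundance in uninjured pools 1, 2 and 3 came from transcripts shorter than 20810 bases.

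A length repeated in all 3 regenerating pools was seen in 2 other genes, which bear consecutive identifiers. AMEX60DD025680 had 16569 bases in each regenerating pool, against 7499, 12269 and 8552 bases in the uninjured pools. AMEX60DD025679 had 15789 bases in each regenerating pool, against 7413, 9358 and 12571 bases in the uninjured pools. Both were thus uniform in the regenerating group and spread widely in the uninjured group. Transcripts shorter than the repeated length made up at least 54.7%, 26.0% and 48.4% of the abundance of AMEX60DD025680 in uninjured pools 1, 2 and 3, and at least 53.1%, 40.7% and 20.4% of that of AMEX60DD025679. AMEX60DD018081 came near to this pattern, with 7356, 7349 and 7349 bases in the regenerating pools, against 4125, 5089 and 4377 bases in the uninjured pools. No gene among the 37 had the same length in all 3 uninjured pools, although AMEX60DD052212 came close at 6425, 6423 and 6425 bases, against 10539, 9511 and 9169.6 bases in regenerating pools 1, 2 and 3.

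**Figure D2:**
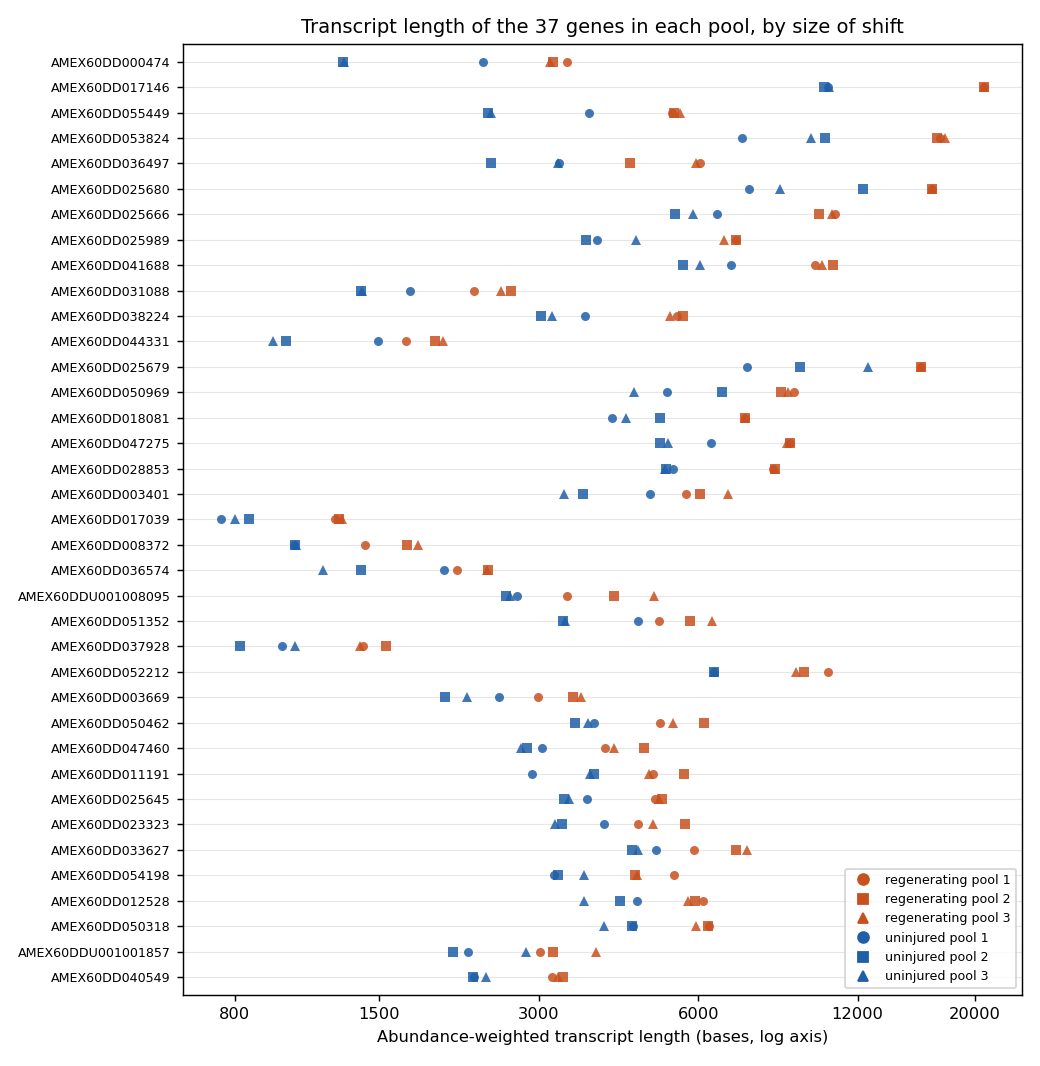
Abundance-weighted transcript length in bases (x axis, log scale) of the 37 genes (rows, ordered from the greatest shift at the top to the smallest) in regenerating (orange) and uninjured (blue) pools, each point 1 pool. Every orange point lies to the right of every blue point of its row, as the choice of genes requires, and the blue points of many rows are more widely spread, as in AMEX60DD000474, where uninjured pool 1 lies between the other uninjured pools and the regenerating ones.

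Among the other genes with large shifts, AMEX60DD055449 measured 5347, 5412 and 5548 bases in the regenerating pools, against 3729, 2411 and 2439 bases in the uninjured pools, a 1.94-fold greater mean. Uninjured pool 1 again lay about midway between the other uninjured pools and the regenerating ones. AMEX60DD053824 measured 17194, 16958 and 17549 bases in the regenerating pools, against 7259, 10425 and 9787 bases in the uninjured pools, and here uninjured pool 1 was the shortest. Its regenerating lengths averaged 17234 ± 297 bases and its uninjured lengths 9157 ± 1675 bases (SD, n = 3 pools each).

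AMEX60DD036497 measured 6039, 4466 and 5945 bases in the regenerating pools, against 3269.8, 2435 and 3256 bases in the uninjured pools. In this gene, read 105 to 173 times in the regenerating and 178 to 220 times in the uninjured libraries, regenerating pool 2 was shorter than the other regenerating pools but longer than all uninjured ones. AMEX60DD025666 measured 10852, 10154 and 10736 bases in the regenerating pools, against 6504, 5425 and 5866 bases in the uninjured pools, a 1.79-fold greater mean. AMEX60DD025989 measured 7072, 7062 and 6720.4 bases in the regenerating pools, against 3871, 3685 and 4577 bases in the uninjured pools. In both genes the spread within each group was small beside the distance between the groups.

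AMEX60DD041688 measured 9976, 10760.0 and 10292 bases in the regenerating pools, against 6918, 5627 and 6041 bases in the uninjured pools, a 1.67-fold greater mean. AMEX60DD031088, a gene of shorter transcripts, measured 2261, 2660.4 and 2551 bases in the regenerating pools, against 1718, 1388 and 1392 bases in the uninjured pools. Its uninjured pools 2 and 3 were almost identical and its pool 1 longer. AMEX60DD028853, which was among the 5 genes with the widest gaps, was even in both groups, at 8315, 8381 and 8369 bases in the regenerating pools, against 5388, 5223 and 5189.6 bases in the uninjured pools.

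The gap between the shortest regenerating and the longest uninjured pool differed widely among the genes. The regenerating value exceeded the uninjured one by 5.90% in AMEX60DD036574, the narrowest case, by 96.1% in AMEX60DD017146, the widest, and by a median of 33.1%. In 21 of the 37 genes the gap was wider, on the log2 scale, than the range within either group. Uninjured pool 1 was the longest uninjured pool in several of the narrow cases. In AMEX60DD036574 the lengths were 2104, 2406 and 2398 bases in the regenerating pools, against 1987, 1386 and 1172 bases in the uninjured pools, and in AMEX60DD044331 they were 1686, 1911 and 1982 bases in the regenerating pools, against 1494, 999 and 943 bases in the uninjured pools.

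Lengths varied more among the uninjured than among the regenerating pools. The range within the group was wider in the uninjured pools for 29 genes and in the regenerating pools for 8, with a median log2 range of 0.11 in regenerating and 0.31 in uninjured pools. These ranges were not computed over the other genes, so they are not shown to be particular to the 37. Uninjured pools 2 and 3 alone differed by a median of 0.09. Uninjured pool 1 had the longest uninjured value in 22 of the 37 genes (59.5%), against 34.8% of the 9469 genes with several lengths that differed among the uninjured pools. It exceeded both other uninjured pools by more than 0.2 on the log2 scale in 11 genes. On a scale from 0, the mean log2 length of uninjured pools 2 and 3, to 1, the regenerating mean, pool 1 lay at a median of 0.175 (range -1.01 to 0.753). Without uninjured pool 1, 43 genes met the same demands, 33 of them among the 37.

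Each regenerating pool shares its animals with the uninjured pool of its number, so each pair gives a shift of its own. Over the 37 genes the log2 shift of pair 1 had a median of 0.50 (range 0.08 to 1.24), that of pair 2 a median of 0.735 (0.37 to 1.32) and that of pair 3 a median of 0.735 (0.33 to 1.29). The shift reached 0.5 in 19 genes in pair 1, 32 in pair 2 and 31 in pair 3, and in all 3 pairs in 13 genes.

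The identifiers showed a cluster. Of the 37 genes, 35 carry identifiers of the form AMEX60DD with a number and 2 begin with AMEX60DDU, a share of 5.41% against 3.84% of the 9689 genes with several lengths. Of the numbered ones, AMEX60DD025645, AMEX60DD025666, AMEX60DD025679 and AMEX60DD025680 followed each other in steps of 21, 13 and 1. The next closest 2 were 77 numbers apart. A stretch of consecutive numbers around these 4 genes, chosen after the values were seen, held 51 genes, of which 14 had at least 100 reads in each library and 12 of these had several lengths. The other 8 of those 12 shifted by -0.06 to 0.06 on the log2 scale, so the neighbours by number did not share the shift. AMEX60DD025645 measured 4968, 5128 and 5067 bases in the regenerating pools, against 3704, 3347 and 3417 bases in the uninjured pools. The sources used here give no positions on chromosomes, and whether reads are divided between these 4 genes by similar sequence was not tested.

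The level of the whole gene was tested with edgeR on reads, in a fit over the 37844 genes that passed a filter on low reads, which all 37 genes passed. This fit did not pair the pools that share animals, and the counts of calls from a paired fit are given further below. A gene is called changed when its p-value, adjusted over all 37844 genes, is under 0.05. Levels are reads per M reads of the library after TMM scaling (CPM). Of the 37 genes, 15 were called higher and 10 lower in regenerating retina, and 12 were not called. Over all tested genes, 20.4% were called higher and 21.1% lower, and over the 12981 genes with at least 100 reads in each library 28.9% and 23.4%. The corresponding shares of the 37 genes were 40.5% and 27.0%, and no test of these shares was made. Longer transcripts yield more reads per molecule, so choosing genes by length can itself raise the share called higher on reads. In either direction 25 of the 37 were called, against 41.6% of all tested genes and 52.3% of the 12981. Without uninjured pool 1, 17 of the 37 were called higher and 11 lower, the same 25 among them in the same direction. Over all genes 10009 were then higher and 9131 lower, against 7729 and 8004 with it. The filter on low reads was applied anew in that fit, so these counts are not shares of the 37844 genes. Of the calls without that pool, 60.7% were higher among the 37 genes and 52.3% over all genes. Longer transcripts thus occurred in genes whose reads rose, fell or did not pass the test.

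The change in reads ran from -4.23 to 4.68 on the log2 scale, with a median of 0.46, against a median of 0.10 over the 12981 genes and -0.01 over all tested genes. As with the shares, choosing genes by length can itself raise the median of the 37. The change was at least 2-fold upward in 11 genes, at least 2-fold downward in 6, and smaller in 20. Its median size in either direction was 0.99 on the log2 scale, against 0.64 over the 12981 genes. CPM of the 2 groups did not overlap in 27 genes, with the regenerating pools above in 16 and below in 11; the shares over the 12981 genes were 37.5% and 30.5%. Without uninjured pool 1 they lay above in 18 and below in 12, with shares of 43.4% and 36.2% over the 12981 genes. The median shift was 0.65 in the genes called higher, 0.62 in those called lower and 0.69 in those not called.

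**Figure D3:**
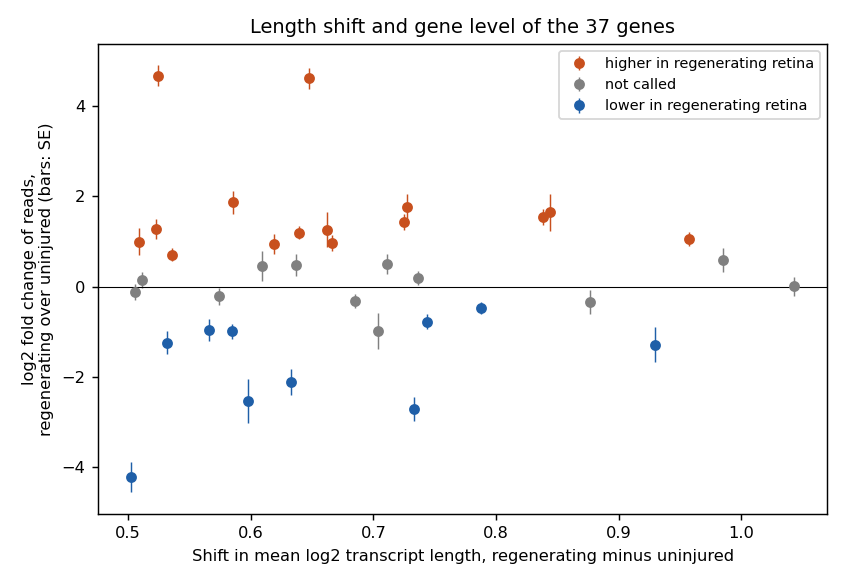
Log2 fold change of reads, regenerating over uninjured, with its standard error (y axis), against the shift in mean log2 transcript length (x axis) for the 37 genes, coloured by the edgeR call. The shifts of genes called higher lie between 0.51 and 0.96, those of genes called lower between 0.50 and 0.93, and those of genes not called between 0.51 and 1.04, the last 2 points on the right being AMEX60DD017146 and AMEX60DD000474.

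The genes that rose differed widely in size of change. AMEX60DD033627 had 379.9, 239 and 327 CPM in the regenerating pools, against 12.7, 12.6 and 11.7 CPM in the uninjured pools, a 25.6-fold rise (log2 fold change 4.68, SE 0.23, adjusted p 4.74e-05). Its transcript length was 5890.1, 7065 and 7429.9 bases in the regenerating pools, against 4986, 4509 and 4625 bases in the uninjured pools. The gene was at an even, low level in the uninjured retina, and the regenerating pools, though uneven in both length and level, lay far above it in reads.

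AMEX60DD017039 had 82.8, 116 and 96.6 CPM in the regenerating pools, against 3.52, 4.98 and 3.53 CPM in the uninjured pools, a 24.5-fold rise (log2 fold change 4.62, SE 0.23, adjusted p 5.02e-05). Its length was 1237, 1258 and 1277 bases in the regenerating pools, against 755, 853 and 803 bases in the uninjured pools, among the shortest of the 37 genes. Both genes rose far more than the next in order. The uninjured lengths of AMEX60DD017039 rest on 140, 184 and 116 reads and its regenerating lengths on 2286, 3493 and 3114.

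AMEX60DD003669 had 61.7, 90.7 and 101 CPM in the regenerating pools, against 29.7, 20.8 and 19.1 CPM in the uninjured pools, a 3.64-fold rise (adjusted p 0.00191), with lengths of 2991, 3482 and 3599 bases in the regenerating pools, against 2526, 1998 and 2199 bases in the uninjured pools. AMEX60DD044331 had 16.8, 14.2 and 12.3 CPM in the regenerating pools, against 6.03, 3.33 and 3.44 CPM in the uninjured pools, a 3.38-fold rise (adjusted p 0.00393). In both genes uninjured pool 1 held the highest uninjured level as well as the longest uninjured transcripts. The 4 genes with neighbouring identifiers were also called higher, as were 28.9% of the 12981 genes. Changes in reads of the other genes numbered near them are not given here, so the rise is not shown to be particular to these 4. AMEX60DD025680 rose 3.13-fold (adjusted p 0.0185) and AMEX60DD025666 2.91-fold (adjusted p 0.00107). AMEX60DD025679 rose 2.69-fold (adjusted p 0.00104) and AMEX60DD025645 1.63-fold (adjusted p 0.00848). Their log2 fold changes, in this order, were 1.65, 1.54, 1.43 and 0.71 on reads. With effective lengths as offsets in the same edgeR model they were only 0.81, 0.92, 0.64 and 0.19. The choice of genes by length can raise values on reads, calls included, and can lower values per length. The values per length are a description with no test. AMEX60DD025680 had 20.1, 27.8 and 50.6 CPM in the regenerating pools, against 6.85, 11.4 and 13.2 CPM in the uninjured pools, so its regenerating pools were uneven. Its rise did not pass without uninjured pool 2 (adjusted p 0.0561), nor that of AMEX60DD025645 without uninjured pool 3 (0.0516).

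The remaining 7 genes called higher rose 1.93-fold to 2.44-fold in reads. Per effective length, with the same limit, their log2 fold changes ran only from 0.22 (AMEX60DD055449) to 0.71 (AMEX60DD054198). AMEX60DD055449 had 61.2, 73.1 and 86.3 CPM in the regenerating pools, against 34.9, 36.4 and 35.1 CPM in the uninjured pools (adjusted p 0.00264) and AMEX60DD028853 79.2, 97.3 and 109 CPM in the regenerating pools, against 42.3, 54.3 and 49.4 CPM in the uninjured pools (adjusted p 0.00545). In both genes every regenerating pool lay above every uninjured pool. AMEX60DD008372 rose 2.28-fold (adjusted p 0.00110) with lengths of 1413, 1695 and 1777 bases in the regenerating pools, against 1035, 1041 and 1046 bases in the uninjured pools, and AMEX60DD054198 rose 2.44-fold (adjusted p 0.00452) with lengths of 5404, 4550.0 and 4604 bases in the regenerating pools, against 3213, 3259.6 and 3646 bases in the uninjured pools. In AMEX60DD008372 the uninjured lengths were nearly identical.

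The other 3 of the 7 lost the call in some fits without 1 library. Such fits, other than the one without uninjured pool 1, also called fewer genes higher over all genes (5219 to 6450, against 7729). AMEX60DD003401, with 10.5, 15.5 and 17.7 CPM in the regenerating pools, against 9.57, 4.52 and 4.14 CPM in the uninjured pools, was called at an adjusted p of 0.0388, which became 0.0929 with pools paired by animal (a fit that called 14 of the 37 genes higher and 10 lower, and 18.2% and 18.4% of all genes). It was 0.0803 with library totals in place of TMM, 0.0503 with no filter on low reads, and 0.103 to 0.132 without regenerating pool 2 or 3 or uninjured pool 2 or 3. AMEX60DD050318, with 40.3, 34.6 and 32.2 CPM in the regenerating pools, against 26.8, 14.4 and 12.7 CPM in the uninjured pools, was called at an adjusted p of 0.0379, which lay between 0.0854 and 0.123 without any 1 pool other than uninjured pool 1. With library totals it was 0.0950. AMEX60DD051352, with 52.5, 60.6 and 59.8 CPM in the regenerating pools, against 39.9, 24.0 and 25.6 CPM in the uninjured pools, was called at an adjusted p of 0.0144, which lay between 0.0524 and 0.0629 without regenerating pool 2 or 3 or uninjured pool 2 or 3. In all 3 genes uninjured pool 1 held the highest uninjured level, and it held the longest uninjured transcripts as well. AMEX60DD003401 measured 5698, 6044 and 6826 bases in the regenerating pools, against 4873, 3632 and 3355 bases in the uninjured pools. AMEX60DD050318 measured 6278, 6266 and 5947 bases in the regenerating pools, against 4524, 4507 and 3983 bases in the uninjured pools. AMEX60DD051352 measured 5066, 5801 and 6374 bases in the regenerating pools, against 4613, 3333 and 3364 bases in the uninjured pools.

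AMEX60DD040549 fell the furthest, to 17.8, 28.4 and 26.9 CPM in the regenerating pools, against 300.1, 569.5 and 502 CPM in the uninjured pools, an 18.7-fold fall (log2 fold change -4.23, SE 0.34, adjusted p 0.000213). It was the gene with the most reads among the 37 in the uninjured retina. Its length was 3172, 3337 and 3265 bases in the regenerating pools, against 2267, 2252 and 2383 bases in the uninjured pools, so its transcripts were estimated to be longer on average in each regenerating pool.

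AMEX60DD038224 fell 6.55-fold, to 7.02, 10.5 and 13.6 CPM in the regenerating pools, against 59.2, 72.5 and 72.2 CPM in the uninjured pools (log2 fold change -2.71, SE 0.26, adjusted p 0.000455). Its length was 5466, 5616 and 5302 bases in the regenerating pools, against 3668, 3032 and 3184 bases in the uninjured pools. The groups were far apart in both measures. AMEX60DD052212 fell 5.80-fold, to 8.47, 31.6 and 26.1 CPM in the regenerating pools, against 101, 145 and 137 CPM in the uninjured pools (adjusted p 0.00725), with regenerating pool 1 below the other regenerating pools. AMEX60DDU001008095 fell 4.32-fold, to 37.4, 68.6 and 63.6 CPM in the regenerating pools, against 191, 271 and 271 CPM in the uninjured pools (adjusted p 0.00166), with lengths of 3396, 4159 and 4948 bases in the regenerating pools, against 2724, 2605 and 2643 bases in the uninjured pools. Its uninjured lengths were close together and its regenerating lengths uneven.

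The other 6 genes called lower fell 1.39-fold to 2.44-fold. AMEX60DD053824 had 29.5, 35.3 and 36.3 CPM in the regenerating pools, against 38.9, 114 and 93.7 CPM in the uninjured pools, so that uninjured pool 1 lay close to the regenerating pools, and its adjusted p of 0.0358 became 0.0793 to 0.116 without any 1 pool other than uninjured pool 1. AMEX60DD023323 fell 2.37-fold (adjusted p 0.00912) and AMEX60DD050462 1.99-fold (adjusted p 0.00374). Both of these calls held without each library in turn. AMEX60DD011191 fell 1.94-fold (adjusted p 0.0219) but did not pass without regenerating pool 2 (0.0842) or 3 (0.0781). AMEX60DD041688 fell 1.71-fold (adjusted p 0.0111, or 0.0506 without regenerating pool 2). AMEX60DD025989 fell 1.39-fold (adjusted p 0.0234, or 0.0514 to 0.0915 without any 1 pool other than uninjured pool 1, and 0.0796 with no filter on low reads). The lengths of these genes were less far apart than those of AMEX60DD053824. AMEX60DD023323 measured 4618, 5656 and 4939 bases in the regenerating pools, against 3993, 3314 and 3227 bases in the uninjured pools. AMEX60DD050462 measured 5078, 6154 and 5376 bases in the regenerating pools, against 3813, 3507 and 3725 bases in the uninjured pools. AMEX60DD011191 measured 4934, 5647 and 4843 bases in the regenerating pools, against 2915, 3813 and 3746 bases in the uninjured pools. In AMEX60DD011191 uninjured pool 1 was both the shortest and the highest in reads of the uninjured pools. Together, 16 of the 25 calls, 10 higher and 6 lower, held without each library in turn. Calls that held in this way were not counted over all genes. Without regenerating pool 2, 6 of the 10 genes were still called lower. Over all genes, 6129 were called lower without that pool, against 8004 with it.

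In 12 genes the length differed while the change in reads did not pass the test. AMEX60DD047275 had 51.3, 55.2 and 68.2 CPM in the regenerating pools, against 73.8, 73.0 and 71.7 CPM in the uninjured pools (log2 fold change -0.32, SE 0.15, adjusted p 0.126), and its length was 8938, 8927 and 8819 bases in the regenerating pools, against 6332, 5089 and 5255 bases in the uninjured pools. Its groups did not overlap in reads, and with library totals in place of TMM it was called lower (log2 fold change -0.49, adjusted p 0.0423). AMEX60DD031088 had 40.6, 39.7 and 29.3 CPM in the regenerating pools, against 33.2, 30.8 and 32.1 CPM in the uninjured pools (log2 fold change 0.19, SE 0.16, adjusted p 0.396). Its groups overlapped in reads and not in length. AMEX60DD012528 had 21.3, 19.1 and 25.3 CPM in the regenerating pools, against 23.2, 18.2 and 17.8 CPM in the uninjured pools (adjusted p 0.539), and AMEX60DD047460 had 15.2, 18.3 and 12.4 CPM in the regenerating pools, against 19.5, 18.8 and 15.2 CPM in the uninjured pools (adjusted p 0.415). Both overlapped in reads as well. AMEX60DD012528 measured 6137, 5923 and 5729.7 bases in the regenerating pools, against 4607, 4271 and 3659 bases in the uninjured pools. AMEX60DD047460 measured 4006, 4746 and 4167 bases in the regenerating pools, against 3038, 2851 and 2774 bases in the uninjured pools.

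AMEX60DD018081 had 7.82, 7.81 and 7.26 CPM in the regenerating pools, against 6.85, 21.8 and 16.8 CPM in the uninjured pools. Uninjured pool 1 lay at the level of the regenerating pools, and the change was called without it (log2 fold change -1.34, adjusted p 0.00112, against -0.99 and 0.0929 with it). AMEX60DD036574 and AMEX60DD050969, at log2 fold changes of 0.48 and 0.51 (adjusted p 0.155 and 0.114), were likewise called only without that pool (adjusted p 0.0399 and 0.0128). The genes with the greatest length shifts were among those not called, AMEX60DD000474 with a log2 fold change of 0.0022 (SE 0.21, adjusted p 0.995) and AMEX60DD017146 with 0.59 (SE 0.28, adjusted p 0.135). For AMEX60DD036497, AMEX60DD037928 and AMEX60DDU001001857 the log2 fold changes were -0.35, 0.46 and -0.11, with SE of 0.26, 0.33 and 0.18. AMEX60DD037928 measured 1397, 1548 and 1382 bases in the regenerating pools, against 985, 820.0 and 1042 bases in the uninjured pools. AMEX60DD050969 measured 9115, 8583 and 8854 bases in the regenerating pools, against 5229, 6656 and 4537 bases in the uninjured pools. AMEX60DDU001001857 measured 3015, 3189 and 3841 bases in the regenerating pools, against 2205, 2067 and 2835 bases in the uninjured pools. In the last gene the shortest regenerating and the longest uninjured pool were only 179.9 bases apart. A change that misses the threshold does not show that the level stayed the same.

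**Figure D4:**
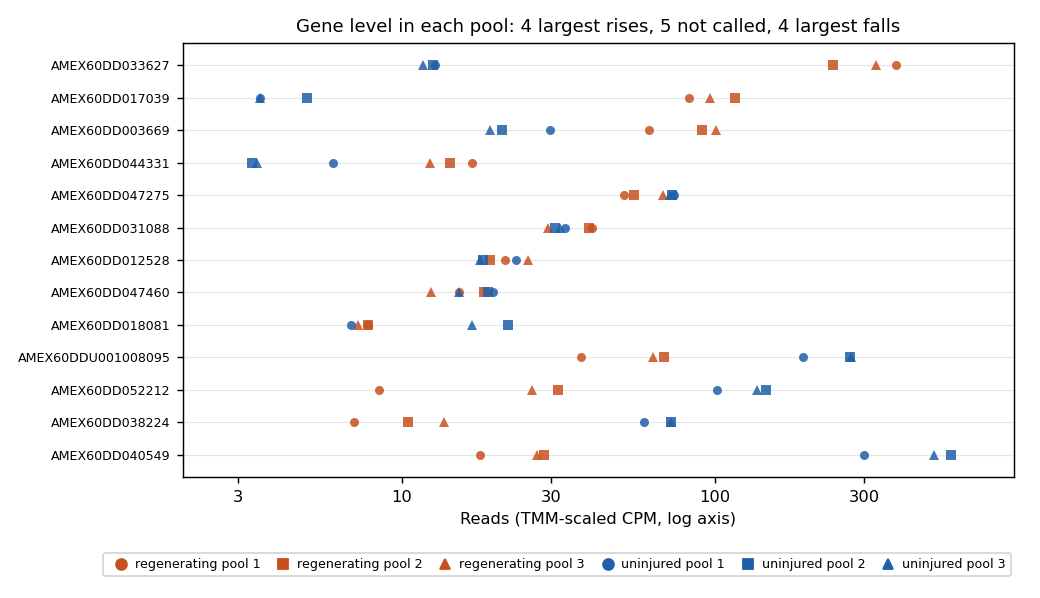
Reads as TMM-scaled CPM (x axis, log scale) in each regenerating (orange) and uninjured (blue) pool for the 4 genes with the largest rises (top), the 5 most read genes not called (middle) and the 4 with the largest falls (bottom), each point 1 pool. The groups do not overlap at the top and bottom, and in the middle they overlap except in AMEX60DD047275. In AMEX60DD018081 uninjured pool 1 lies beside the regenerating pools, and uninjured pools 2 and 3 lie well above them.

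A longer transcript yields more reads per molecule, so the change of these genes was also computed per effective length, with the length of each gene in each library as an offset in the same edgeR model. The offsets are effective lengths, which are related to the lengths by which the genes were chosen but not the same. On effective length, 31 of the 37 genes also met the rule. The choice of genes can thus push their fold changes per length down, and the values per length are a description with no test. They were lower than on reads by 0.34 to 1.66 on the log2 scale, with a median of 0.74. The median log2 fold change of the 37 genes was -0.45 per length and 0.46 on reads, and over all tested genes it was -0.02 per length and -0.01 on reads. The same threshold gave 5 of the 37 genes as higher and 17 as lower per length, against 20.2% and 20.8% of all tested genes and 29.1% and 22.2% of the 12981. Nothing is read from these counts, since the choice of genes can move them.

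The largest positive values per length belonged to AMEX60DD033627 (log2 fold change 4.05) and AMEX60DD017039 (3.62), the genes with the largest rises in reads. AMEX60DD003669 (1.07), AMEX60DD044331 (0.99) and AMEX60DD025666 (0.92) came next. AMEX60DD055449 had a log2 fold change of 1.05 on reads and 0.22 per length, and its TPM values overlapped, at 20.8, 25.7 and 30.6 TPM in the regenerating pools, against 19.9, 30.7 and 29.1 TPM in the uninjured pools.

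AMEX60DD000474, with the greatest shift, had the widest difference between the measures. Its groups overlapped in reads, at 5.10, 3.94 and 4.06 CPM in the regenerating pools, against 4.27, 4.68 and 4.14 CPM in the uninjured pools, whereas its abundance per length was 3.02, 3.27 and 2.94 TPM in the regenerating pools, against 6.62, 15.3 and 13.5 TPM in the uninjured pools. Its log2 fold change was 0.0022 on reads and -1.66 per length. This difference was wider than its length shift of 1.04, which was taken on full rather than effective length. AMEX60DD047275 measured 11.2, 12.8 and 16.8 TPM in the regenerating pools, against 31.4, 37.98 and 35.8 TPM in the uninjured pools, a log2 fold change of -1.10 per length.

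**Figure D5:**
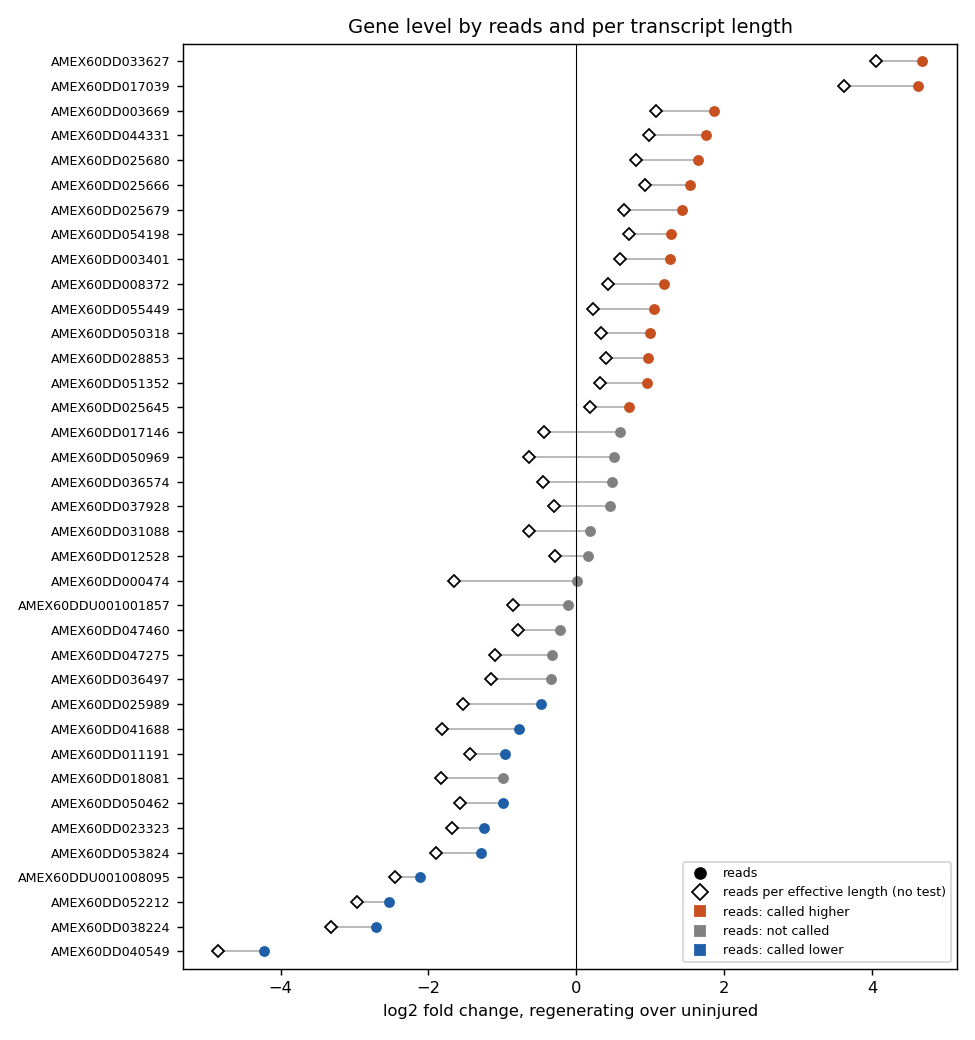
Log2 fold change, regenerating over uninjured (x axis), of the 37 genes (rows, ordered by the change in reads) on reads (circles, coloured by the edgeR call) and on reads per effective length (open diamonds, no test). Each diamond lies to the left of its circle, by 0.34 to 1.66, a direction that the choice of genes by length favours.

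The 37 genes were neither rare nor among the most abundant. Their median over genes of the mean CPM was 26.8, against 27.6 for the 9689 genes with several lengths, and the most read of them ranked 546 of the 12981 genes. On the TPM scale, which allows genes to be compared per length, their group means ran from 0.953 to 162 with a median of 8.70 in the regenerating pools and from 1.57 to 619 with a median of 15.7 in the uninjured pools. AMEX60DD040549 held the highest TPM in the uninjured retina, at 12.5, 20.5 and 20.9 TPM in the regenerating pools, against 429, 789 and 639.6 TPM in the uninjured pools, and AMEX60DD017039 the highest in the regenerating retina, at 132, 191 and 161 TPM in the regenerating pools, against 15.7, 18.2 and 13.9 TPM in the uninjured pools. The lowest read count of any of the 37 genes in a library was 105, 10 genes had under 200 reads in some library and 4 had at least 1000 in every library.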

How the data were processed

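Per the submitters' processing notes, reads were trimmed with Trimmomatic 0.38 and quantified with Salmon 0.13.1. Genome build, annotation and strand setting: not given in the sources used here. Per the file headers, each deposited sample file holds for every gene a TPM value, an estimated count, and a length and effective length in bases. The deposited series table was not used, since its values are not reads per gene. Where genes overlap or are near copies, Salmon can split reads between them, which makes their values uncertain.

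The rule on reads and lengths given in the report was applied to the sample files. The genes, lists and tests were chosen with earlier results of these data known. Estimated counts were rounded and tested with edgeR 4.0.16 in R 4.3.3 (filterByExpr at a minimum count of 10, TMM, robust quasi-likelihood F-test on all 6 libraries without a block, Benjamini-Hochberg adjustment over all genes tested). A standard error (SE) was computed as the absolute log2 fold change over the root of F. Alternatives were effective length offsets, limma 3.58.1 on log2(TPM + 0.5) or log2(TPM + 0.1) (mean TPM of 0.5 or more required), DESeq2 1.42.0, other scalings, no filter, adjusted p under 0.01, a block for pools of the same animals, other limits of the rule, and leaving out each library. Where same-numbered pools are paired, this comes from the labels; their deviations from the group means correlated over genes at 0.01 to 0.07 in log2 CPM and 0.07 to 0.18 in log2 length. Within a group, chi-square per degree of freedom between libraries was 9.32 or more, so no library was a copy of another. It was 124 and 102 between uninjured pool 1 and uninjured pools 2 and 3, and 9.32 between pools 2 and 3. Among the regenerating pools it was 23.5 to 53.8. Depth was 29.4 to 37.4 M reads per library.

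The genes described in most detail were the 10 with the greatest shift, the 8 with most reads, the 4 with the largest called rise and fall, the 5 most read not called, the 5 with the widest gap and the 3 on either side of the threshold, 25 of the 37 in all; the other 12 were described after their values were seen. The cell type marker and splicing factor lists were not tested, since the files hold no gene symbols.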

Additional observations from a re-analysis of the deposited data

How the results depend on the processing

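The number of genes with longer transcripts (37) was 55 at a minimum of 30 reads per library, 46 with effective in place of full length (31 of them shared), 40 with medians, 38 with pools paired by animal (replicate block) and 38 with no demand on the order of pools. It was 36 to 43 without 1 library, 32 to 35 of them shared. It was 20 and 4 at a minimum of 300 and 1000 reads, and 151 and 1 at a shift of at least 0.25 and 1, where the setting itself admits more or fewer genes. Genes called higher (15) and lower (10) on reads were 5 and 17 with length offsets and 4 and 17 on log2(TPM + 0.5) and on log2(TPM + 0.1). These settings divide by effective lengths, which are related to the lengths that chose the genes. The TPM settings also lack the TMM scaling. At an adjusted p under 0.01, 6 were lower, and over all genes 4410 instead of 7729 were higher and 5066 instead of 8004 lower. Without 1 library 11 to 17 were higher and 6 to 11 lower, and over all genes 5219 to 10009 and 5804 to 9131. The replicate block changed no other call among the 37 than that of AMEX60DD003401, with 14 higher and 10 lower. The higher share of the calls over all genes was 49.1%, 39.7% with library totals and 34.6% on log2(TPM + 0.5); the last 2 moved the median change over genes by -0.16 and -0.26 on the log2 scale; of the calls among the 37 genes 60% were higher, against 54.2% and 19.0%, and 22.7% with length offsets.

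Of 555 values of single genes under alternatives, 434 kept direction and side of the threshold, and 33 changed sign, 4 of them from called genes and 6 of them past the threshold. The setting of adjusted p under 0.01 leaves the fold changes as they were. Its values are among the 555 and could not change sign, and genes not called could not gain a call under it. AMEX60DD000474 (0.00215 on reads) measured -0.0128 with RLE factors, -0.16 with library totals, -0.0168 in DESeq2, -1.66 with length offsets, -1.70 on log2(TPM + 0.5), -1.82 on log2(TPM + 0.1), -0.00504 with the replicate block, -0.11 without regenerating pool 1, -0.0178 without uninjured pool 1 and -0.048 without uninjured pool 3 (-0.11 to 0.0839 without 1 library). AMEX60DD012528 (0.15 on reads) measured -0.0201 with library totals, -0.29 with length offsets, -0.55 on log2(TPM + 0.5) and -0.57 on log2(TPM + 0.1). AMEX60DD017146 (0.59 on reads) measured -0.43 with length offsets, -0.53 on log2(TPM + 0.5) and -0.69 on log2(TPM + 0.1). AMEX60DD025645 (0.71 on reads) measured -0.089 on log2(TPM + 0.5) and -0.0928 on log2(TPM + 0.1). AMEX60DD031088 (0.19 on reads) measured -0.65 with length offsets, -0.93 on log2(TPM + 0.5) and -0.94 on log2(TPM + 0.1). AMEX60DD036574 (0.48 on reads) measured -0.45 with length offsets, -0.73 on log2(TPM + 0.5) and -0.76 on log2(TPM + 0.1). AMEX60DD037928 (0.46 on reads) measured -0.30 with length offsets, -0.60 on log2(TPM + 0.5) and -0.62 on log2(TPM + 0.1). AMEX60DD050969 (0.51 on reads) measured -0.65 with length offsets, -0.74 on log2(TPM + 0.5) and -0.82 on log2(TPM + 0.1). AMEX60DD055449 (1.05 on reads) measured -0.0424 on log2(TPM + 0.5) and -0.0429 on log2(TPM + 0.1). The causes of these sign changes were not tested. Genes with few reads limit the precision of lengths, for which the files give no error.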
